A study of Mus musculus with 10 samples.

Results

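Neuronal intermediate filament genes and vimentin were followed in dorsal root ganglia of mice, which house the cell bodies of sensory neurons next to the spinal cord. The 6 genes, Nefl, Nefm, Nefh, Ina, Prph and Vim, were taken by symbol from the 23923 genes measured, and all 6 passed the filter on low counts. Polyadenylated RNA was sequenced from 5 Kif2a fl/fl; Avil cre samples, called Kif2a_cKO here, and from 5 Kif2a fl/fl samples without cre, called control. Kif2a, which both groups carry as a floxed allele, encodes a kinesin that takes microtubules apart, and Avil is a gene active in sensory neurons. All samples were taken at an age of 1 month. The Avil promoter limits cre mainly to neurons, while the whole ganglion that was sequenced also holds glia and other cells. Only the Kif2a_cKO samples carry cre, so the effects of cre and of the deletion cannot be told apart. Nothing in the labels says that each sample was a separate animal, and p-values then measure the spread between samples, which may be technical.

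Intermediate filaments are ropes of coiled proteins that give a cell its mechanical strength. In a neuron, the light, medium and heavy neurofilament proteins encoded by Nefl, Nefm and Nefh build a joint filament that fills the axon and sets its calibre, so large myelinated sensory neurons are rich in them. Prph encodes peripherin, which is typical of peripheral neurons and abundant in small sensory neurons, and Ina encodes alpha-internexin, which is best known from neurons of the brain and spinal cord. Vim encodes vimentin, the filament protein of Schwann cells, satellite glia, fibroblasts and endothelium.

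The libraries held between 28686616 and 73031457 counts in Kif2a_cKO and between 17506135 and 34500320 counts in controls. Kif2a ranged from 63.1 to 73.2 CPM (counts brought to a common library total) in Kif2a_cKO and from 59.5 to 79.7 CPM in controls. Counts over the whole gene do not check the deletion. Avil ranged from 315 to 450 CPM in Kif2a_cKO and from 437 to 849 CPM across the control libraries. Its log2 fold change was -0.82 (SE 0.156), with an adjusted p of 0.351 by edgeR, 0.000195 by DESeq2 and 0.0301 by limma-voom. Without control 3 Avil was at -0.96 on the log2 scale (SE 0.107, edgeR adjusted p = 0.0203). All 12 sensory neuron markers on the list used here were detected in every library, with summed levels of 9136 to 11180 CPM in Kif2a_cKO and of 7880 to 10990 CPM in controls. All 12 were above 0 in log2 fold change, against 52.1% of all tested genes. Of the 12, 2 had an unadjusted p under 0.05 in edgeR, against 2.97% of tested genes in that direction, and none was called. Their median was 0.11, against 0.05 without control 3 and -0.02 without controls 1, 3 and 5. The 13 markers of spinal cord and central glia set controls 1, 3 and 5 apart: their summed level was 51.8 to 291 CPM in Kif2a_cKO, and 676, 82.7, 1962, 78.7 and 660 CPM in controls 1 to 5. Of these 13 genes Opalin, Mnx1 and Chat were at 0 in at least 1 library. The 11 that were tested all lay below 0 on the log2 scale (median -2.14). Of the 11, 5 had an unadjusted p under 0.05 in edgeR, against 4.01% of tested genes in that direction. DESeq2 alone called 1 of the 11, Slc18a3 (adjusted p = 0.0403). The median of the 11 was -1.22 without control 3 and turned to 1.75 without controls 1, 3 and 5. Those controls had the highest sums of these same genes, so leaving them out raises this median by construction.

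None of the 6 filament genes was called different between the groups, against 0.0172% of the 17439 genes tested (3 genes; edgeR, adjusted p under 0.05). DESeq2 called 0.183% and limma-voom 0.0229% of these genes, again with none of the 6 among them. In these fits no member had an unadjusted p under 0.05 in edgeR or limma-voom, and Ina alone had one in DESeq2, at 0.0481. Nefl, Nefm, Nefh, Prph and Vim had a mean above that of controls, by 6.23% to 18.2% in the fit, and Ina had a log2 fold change of -0.56. A log2 fold change above 0 was found in 52.1% of all tested genes, and the median over all of them was 0.007. The groups overlapped in all 6 genes, while they did not overlap in 1.17% of tested genes. In a bulk sample, fewer cells of a type and less RNA per cell cannot be told apart.

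Nefl encodes the light neurofilament protein, the core subunit of the filament. It lies on chromosome 14 from 68083863 to 68089095 on the plus strand (GRCm38) and is annotated as a protein-coding gene of 4 exons. Nefl was at 3355, 2982, 3378, 3458 and 3087 CPM in Kif2a_cKO, and at 2957, 3076, 1817, 3131 and 2773 CPM in controls. Kif2a_cKO libraries 1, 3 and 4 lay above every control, and control 3 lay far below the other 9 libraries. The means were 3252 ± 206 CPM across Kif2a_cKO, against 2751 ± 540 CPM across controls (± SD, n = 5 each), for a log2 fold change of 0.24 (SE 0.135, edgeR adjusted p = 0.727). The 95% interval of this difference ran from -3.47% to 44.8%. Without control 3 the log2 value was 0.11 (SE 0.0786, adjusted p = 0.984).

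Nefm encodes the medium neurofilament protein, whose long tail reaches out from the filament core. Its annotated span on chromosome 14 runs from 68082590 to 68124846 on the minus strand, and its main transcript has 3 exons. Nefm was at 4593, 4161, 3921, 5289 and 3665 CPM in Kif2a_cKO, and at 4220, 4590, 2228, 4132 and 3535 CPM in controls. Kif2a_cKO 4, the deepest library, was the highest, and control 3 was again the lowest. The means were 4326 ± 638 CPM across Kif2a_cKO, against 3741 ± 927 CPM across controls (± SD, n = 5 each), with a log2 fold change of 0.21 (SE 0.175, edgeR adjusted p = 0.834) and a 95% interval from -11.1% to 50.4%. Without control 3 it was 0.06 (SE 0.116), and without Kif2a_cKO 4 it was 0.13 (SE 0.177).

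The light and medium genes are neighbours. RefSeq places 30449 bases between them, but in GENCODE a second Nefm transcript reaches over Nefl and shares 1108 exonic bases with it on the opposite strand. The annotation and the strand setting used for counting are not stated in the labels or file headers, so reads from those bases cannot be assigned with certainty to either gene.

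Nefh encodes the heavy neurofilament protein, with a tail rich in phosphorylation sites. It lies on chromosome 11 from 4938754 to 4948064 on the minus strand and has 4 exons. Nefh was at 3378, 2848, 3224, 3252 and 2732 CPM in Kif2a_cKO, and at 2975, 3103, 1580, 2778 and 2730 CPM in controls. Kif2a_cKO libraries 1, 3 and 4 exceeded all controls, as for Nefl, and Kif2a_cKO 5 sat beside control 5. The means were 3087 ± 280 CPM across Kif2a_cKO, against 2633 ± 608 CPM across controls (± SD, n = 5 each), for a log2 fold change of 0.23 (SE 0.157, edgeR adjusted p = 0.787) with a 95% interval from -7.42% to 48.5%. Without control 3 it was 0.08 (SE 0.0894).

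Prph lies on chromosome 15 from 99055174 to 99058978 on the plus strand, and its main transcript has 8 exons. Prph was at 2384, 2664, 2513, 2521 and 1947 CPM in Kif2a_cKO, and at 2242, 2558, 1635, 2435 and 2000 CPM in controls. The groups overlapped almost throughout, with Kif2a_cKO 2 alone above the highest control and control 3 alone below the lowest Kif2a_cKO library. The means were 2406 ± 275 CPM across Kif2a_cKO, against 2174 ± 368 CPM across controls (± SD, n = 5 each), with a log2 fold change of 0.15 (SE 0.128, edgeR adjusted p = 0.849) and a 95% interval from -8.73% to 34.2%. Without control 3 it was 0.04 (SE 0.104).

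Ina lies on chromosome 19 from 47014698 to 47025327 on the plus strand and has 3 exons. Its levels were 57.5, 58.8, 45.5, 64.7 and 33.5 CPM in Kif2a_cKO, and 71.7, 58.3, 132, 54.3 and 66.9 CPM in controls. Here control 3 was the highest library instead of the lowest, and Kif2a_cKO 5 was the lowest. The means were 52.0 ± 12.5 CPM across Kif2a_cKO, against 76.6 ± 31.6 CPM across controls (± SD, n = 5 each). This amounted to a log2 fold change of -0.56 (SE 0.262), with an unadjusted p of 0.0585, an edgeR adjusted p of 0.705 and a 95% interval from -54.7% to 1.70%. An unadjusted p under 0.05 in the direction of lower Kif2a_cKO levels was found in 4.01% of tested genes. In the authors' deposited table the log2 fold change of Ina was -0.57 with a p of 0.0138 and a false discovery rate of 0.417. Without control 3 Ina was at -0.29 on the log2 scale (SE 0.172, edgeR adjusted p = 0.984), and without controls 1, 3 and 5 it was -0.11 (SE 0.215). The first 456 bases of Ina also lie in exons of Nt5c2, a nucleotidase gene on the other strand, which had 45.9 ± 3.87 CPM across Kif2a_cKO and 46.3 ± 3.404 CPM across controls.

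Vim lies on chromosome 2 from 13573927 to 13582826 on the plus strand, with 9 exons in its main transcript. Vim was at 849, 704, 846, 657 and 855 CPM in Kif2a_cKO, and at 715, 733, 660, 771 and 802 CPM in controls. Kif2a_cKO libraries 1, 3 and 5 lay above all controls, while Kif2a_cKO 4 was the lowest of the 10. The means were 782 ± 94.6 CPM across Kif2a_cKO, against 736 ± 54.2 CPM across controls (± SD, n = 5 each), for a log2 fold change of 0.09 (SE 0.0961, edgeR adjusted p = 0.891) with the narrowest interval of the 6 genes, from -8.02% to 22.7%. Without control 3 it was 0.03 (SE 0.0957).

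**Figure D1:**
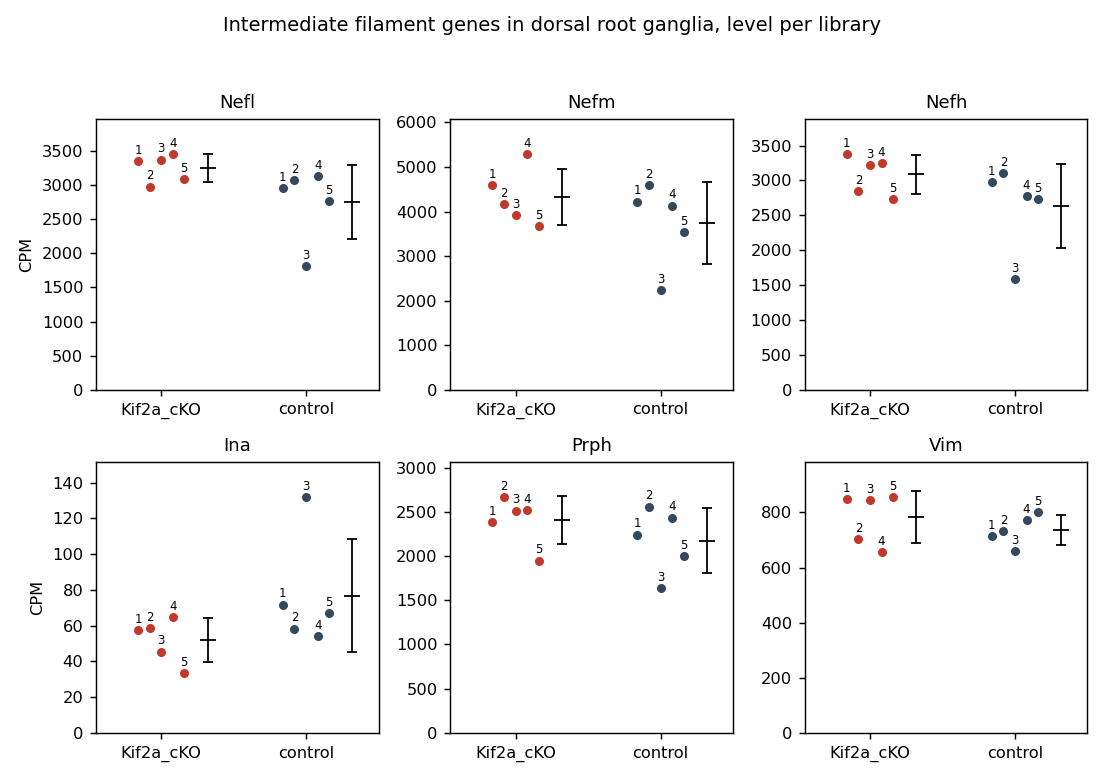
Level of the 6 genes in CPM (vertical axes from 0) in the Kif2a_cKO and control libraries, with each point labelled by its replicate number and bars giving the mean and SD of 5 libraries. Control 3 is the lowest library for Nefl (1817 CPM), Nefm (2228 CPM), Nefh (1580 CPM) and Prph (1635 CPM) and the highest for Ina (132 CPM).

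The core promoter windows of the 3 members for which the sequence table used here holds a promoter are shown so that the starts of these genes can be compared. Each is the stretch from 40 to 11 bases before the annotated RefSeq start (GRCm38.p6, plus strand, 5′ to 3′), with the motif TATAAA in capitals. For Vim the RefSeq start, 13574311, lies downstream of the GENCODE start, 13573927, so its window falls inside the gene span given above. For Ina the RefSeq start is 47014681 and the GENCODE start 47014698. The windows are chr15:99055134-99055163 for Prph, chr2:13574271-13574300 for Vim and chr19:47014641-47014670 for Ina.
Prph: ccgcagggcTATAAAgccgccccgcatcgg
Vim: aacagtgtTATAAAagcagcgcccttggcg
Ina: caaccccgcgccttaaaagccccgcacacc
Prph holds the motif from 31 bases and Vim from 32 bases before the start, and Ina does not hold these letters in its window. On either strand, 2.66% of the 32851 promoters in the table hold the motif in the same window. A match describes the letters and not a working site.

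The fitted differences shrank when the controls with the highest spinal cord and central glia sums were left out. Control 3 was also the lowest control for Nefl, Nefm, Nefh, Prph and Vim and the highest for Ina. Leaving it out thus raises the control mean of those genes, and lowers that of Ina, by construction. Without control 3 the control mean was 2984 ± 159 CPM for Nefl, 2897 ± 174 CPM for Nefh and 62.8 ± 7.94 CPM for Ina (SD, n = 4). The log2 fold changes then lay between 0.03 and 0.11 for Nefl, Nefm, Nefh, Prph and Vim. Without controls 1, 3 and 5, Nefl was at 0.07 (SE 0.109), Nefh at 0.07 (SE 0.124) and Vim at 0.06 (SE 0.129), while Nefm at -0.01 (SE 0.148) and Prph at -0.05 (SE 0.130) had the opposite sign. None of the 6 was called in either fit, against 0.0057% of genes tested without control 3 and 0% without controls 1, 3 and 5, and none had an unadjusted p under 0.05 there.

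**Figure D2:**
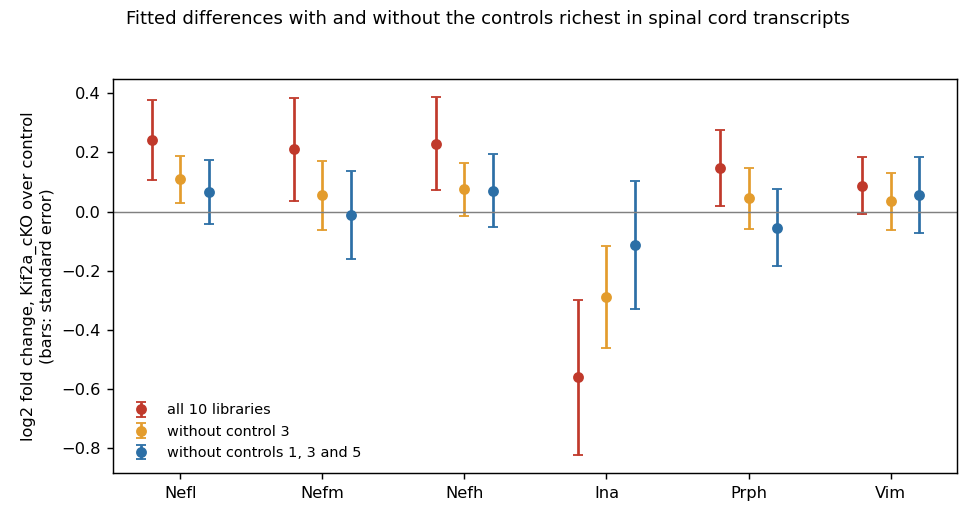
Log2 fold change of each gene, Kif2a_cKO over control (vertical axis), fitted on all 10 libraries, without control 3, and without controls 1, 3 and 5, with bars of 1 standard error. The differences of Nefl, Nefm, Nefh, Prph and Ina are nearer to 0 without control 3, where Nefl is at 0.11 and Ina at -0.29.

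Among the libraries, Ina and the neurofilament genes stood apart from each other in control 3. This library had 1962 CPM over the 13 spinal cord and central glia genes, against 676 CPM in control 1, the next highest. Mog, a surface protein of oligodendrocytes, was at 83.5 CPM in control 3 and between 0.139 and 6.10 CPM in Kif2a_cKO. Slc18a3, which encodes the transporter that loads acetylcholine into vesicles of motor neurons, was at 14.0 CPM in control 3 and between 0.0347 and 0.512 CPM in Kif2a_cKO. In the 3 libraries with the lowest sums, Ina was at 58.8 CPM in Kif2a_cKO 2, against 58.3 and 54.3 CPM in controls 2 and 4. The 2 lowest Ina values, 45.5 CPM in Kif2a_cKO 3 and 33.5 CPM in Kif2a_cKO 5, came from libraries with sums of 291 and 274 CPM. Kif2a_cKO 4, with a similar sum of 290 CPM, had the highest Ina of its group, 64.7 CPM. The summed sensory neuron markers were lowest in control 3 too, at 7880 CPM. The part of spinal cord transcripts in the values of Ina and the neurofilament genes was not tested.

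**Figure D3:**
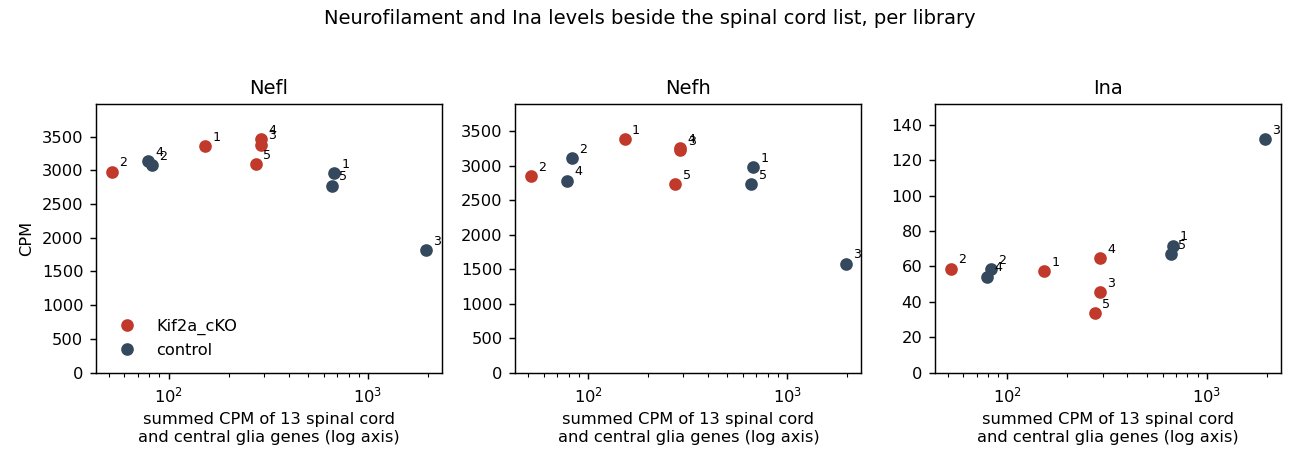
Nefl, Nefh and Ina in CPM (vertical axes) against the summed CPM of 13 spinal cord and central glia genes (horizontal log axis), 1 point per library with its replicate number. Control 3, at 1962 CPM on the horizontal axis, has the lowest Nefl and Nefh and the highest Ina.

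Per length of the main transcript, peripherin and the medium neurofilament were the most abundant. On this scale Prph had 1291 ± 148 CPM per kb in Kif2a_cKO and 1167 ± 197 CPM per kb in controls. Nefm had 1297 ± 191 CPM per kb in Kif2a_cKO and 1122 ± 278 CPM per kb in controls. These 2 did not differ beyond their spread: Prph was above Nefm in 5 of 10 libraries, with a ratio of 1.03 ± 0.135. Nefl followed, with 962 ± 60.8 CPM per kb in Kif2a_cKO and 814 ± 160 CPM per kb in controls. Nefh had 773 ± 70.2 CPM per kb in Kif2a_cKO and 659 ± 152 CPM per kb in controls. The order Nefm, Nefl, Nefh held in all 10 libraries. Vim stood at 357 ± 43.1 CPM per kb in Kif2a_cKO and 336 ± 24.7 CPM per kb in controls, below Nefh in every library. Ina was the least abundant by far, at 16.05 ± 3.85 CPM per kb in Kif2a_cKO and 23.6 ± 9.76 CPM per kb in controls. Per coding length instead of transcript length, Nefl led in all 10 libraries, with 1842 ± 287 CPM per coding kb over the 10 libraries, against 1585 ± 319 for Nefm and 1506 ± 217 for Prph.

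**Figure D4:**
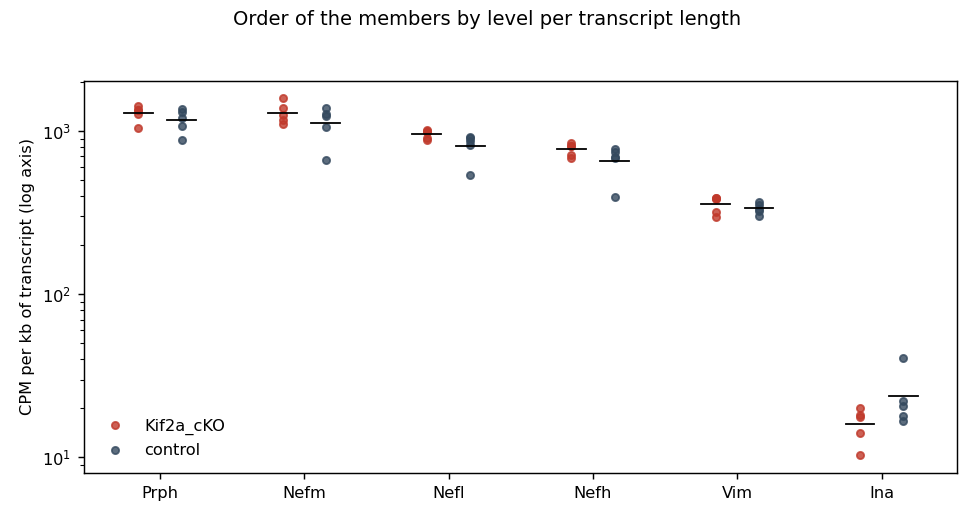
CPM per kb of the main transcript (vertical log axis) for the 6 genes in falling order of their mean, with 5 Kif2a_cKO and 5 control libraries per gene and a line at each mean. Prph and Nefm overlap, Vim lies between 299 and 390 CPM per kb, and Ina between 10.3 and 40.7 CPM per kb.

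These genes take up a sizeable part of the ganglion's messenger RNA. Together the 6 held between 1.27% and 1.51% of all counts in Kif2a_cKO, and 1.34%, 1.37%, 0.821%, 1.33% and 1.25% in controls 1 to 5. By mean share of counts Nefm ranked 12, Nefl 14, Nefh 15 and Prph 25 among all genes, against 122 for Vim and 3386 for Ina. These ranks use counts and so favour long transcripts.

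The proportions of the 3 neurofilament genes to each other differed by less than 1 SD between the groups. A ratio within a library does not depend on how libraries are scaled, and no test was run on the ratios. The Nefh to Nefl ratio per length was 0.803 ± 0.0369 across Kif2a_cKO, against 0.805 ± 0.0572 across controls (± SD, n = 5 each), with 0.736 in control 3. The Nefm to Nefl ratio was 1.35 ± 0.156 in Kif2a_cKO and 1.37 ± 0.111 in controls, and its highest value, 1.55, was in Kif2a_cKO 4. The groups overlapped in all 5 ratios to Nefl. The Prph to Nefl ratio was 1.34 ± 0.173 in Kif2a_cKO and 1.45 ± 0.126 in controls, and the Vim to Nefl ratio 0.372 ± 0.0497 in Kif2a_cKO and 0.425 ± 0.0820 in controls. Control 3 had the highest value of both, at 1.63 for Prph and 0.560 for Vim, so relative to Nefl, Prph and Vim were not low there. The Ina to Nefl ratio was 0.0167 ± 0.00388 in Kif2a_cKO and 0.0328 ± 0.0242 in controls, with 0.0757 in control 3 and between 0.0181 and 0.0253 in the other controls. On the log2 scale, Kif2a_cKO minus control, the mean difference in the ratio to Nefl was -0.78 for Ina, -0.18 for Vim and -0.11 for Prph. Without control 3 these differences were -0.43, -0.08 and -0.07.

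**Figure D5:**
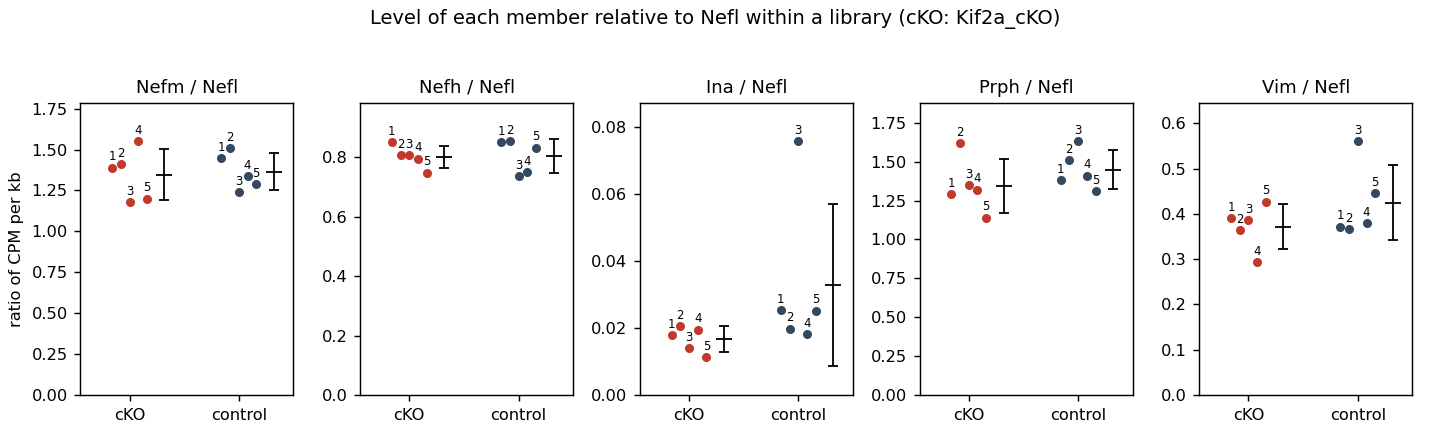
Ratio of each gene to Nefl within a library, per kb of transcript (vertical axes from 0), for Kif2a_cKO and control libraries labelled by replicate number, with bars giving the mean and SD of 5 libraries. The Nefh to Nefl ratio lies between 0.736 and 0.854 in all 10 libraries, and the Ina to Nefl ratio of control 3 (0.0757) lies far from the rest.

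For each member the genes whose pattern over the 10 libraries was most like its own were taken from the 10191 other genes with a mean of at least 10 CPM, by Pearson's r of log2 CPM. These are the best of many and are given as a description, and all points share library, depth and tissue makeup. For Nefh the 3 were Six4, Nefl and Rtn3 (r = 0.974, 0.972 and 0.964), and for Nefl they were Nefh, Epdr1 and Rufy3 (r = 0.972, 0.967 and 0.958). Without the 2 libraries farthest from the Nefl median, control 3 among them, r with Nefl was 0.744 for Nefh, 0.713 for Epdr1 and 0.456 for Rufy3, so the last relation rested on those libraries. Without the 2 farthest from the Nefh median, r with Nefh was 0.835 for Six4 and 0.699 for Rtn3. The light and heavy neurofilament genes thus stood among each other's 3 nearest. Their Spearman's rho was 0.770, and r was 0.786 without control 3. For Nefm the 3 were Slc17a7, a vesicular glutamate transporter gene, Lcp1 and Pygb (r = 0.981, 0.979 and 0.978), and r for Slc17a7 was 0.977 without the 2 libraries farthest from the Nefm median. For Prph they were Klf7, a transcription factor gene, Nagk and Cyb5r1 (r = 0.984, 0.981 and 0.979), with r = 0.952 for Klf7 without the 2 farthest libraries. For Ina they were Plekhh1, Slc22a17 and Lmtk2 (r = 0.984, 0.983 and 0.981), with r = 0.976 for Plekhh1 without the 2 farthest. For Vim they were Crlf3, Art3 and Ccndbp1 (r = 0.952, 0.941 and 0.921). Between members, Ina ran opposite to Nefl over all 10 libraries (r = -0.782, rho = -0.648), more weakly without control 3 (r = -0.237). Ina also ran opposite to Vim (r = -0.716, rho = -0.733), with r = -0.636 without control 3.

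The other filament genes of the list, which excludes keratins, were not called either. Of 12 measured, none was called higher or lower, 6 were above 0 and 6 below, and the median log2 fold change was 0.002, against 0.007 for all tested genes. Without control 3 the median was -0.05. The most abundant were Synm, which encodes synemin, a partner of vimentin and desmin filaments, at 281 ± 27.0 CPM across Kif2a_cKO and 260 ± 44.5 CPM across controls, and Lmna, which encodes lamins of the nuclear envelope, at 129 ± 10.97 CPM across Kif2a_cKO and 125 ± 13.7 CPM across controls. Nes encodes nestin, a filament protein of progenitors that also occurs in Schwann cells. Nes was at 96.8, 73.2, 95.5, 73.4 and 90.7 CPM in Kif2a_cKO, and at 127, 109, 107, 106 and 76.9 CPM in controls. Of the controls, 4 lay above every Kif2a_cKO library, and control 5 lay within their range. Its log2 fold change of -0.29 (SE 0.127) had the smallest p of the list, 0.0396 unadjusted and 0.703 adjusted in edgeR. Without control 3 it was -0.30 (SE 0.142). The 9 myelinating Schwann cell markers ran below 0 as well, all 9 of them, with a median of -0.32. It was -0.35 without control 3 and -0.23 without controls 1, 3 and 5. Of the 9, 5 had an unadjusted p under 0.05 (smallest 0.00522, for Prx), against 4.01% of tested genes in that direction, and 0 were called by edgeR, DESeq2 or limma-voom. These 5 were Prx, Drp2, Pmp2, Mbp and Mag, at -0.350, -0.324, -0.559, -0.454 and -1.053 on the log2 scale. Without controls 1, 3 and 5 they were at -0.365, -0.311, -0.227, -0.054 and -0.148. The summed level of all 9 was 21200 to 33480 CPM in Kif2a_cKO and 29220 to 39460 CPM in controls. Their part in the Nes values was not tested.

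Gfap, best known as a filament gene of astrocytes but not a marker of them alone, was chosen after its values were seen. It was at 12.6, 4.44, 31.6, 27.9 and 41.1 CPM in Kif2a_cKO, and at 82.6, 5.95, 276, 9.07 and 77.3 CPM in controls. Controls 1, 3 and 5 stood above all other libraries, as they did in the spinal cord and central glia sums. The log2 fold change of -1.94 (SE 1.04) was not called (edgeR adjusted p = 0.727). Without control 3 Gfap was at -0.94 (SE 0.923). Without controls 1, 3 and 5, the libraries where it was highest, its sign turned, to 1.67 (SE 0.918).

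Genes whose products link, carry, modify or remove filaments were likewise uncalled. All 21 on the list were measured, 13 were above 0 and 8 below, and the median was 0.03. That sign did not hold, as the median was -0.06 without control 3 and -0.09 without controls 1, 3 and 5. The most abundant were Mapk3, a kinase that phosphorylates neurofilament tails, at 1362 ± 181 CPM across Kif2a_cKO and 1335 ± 204 CPM across controls, and Kif5a, a kinesin that carries neurofilaments, at 1261 ± 191 CPM across Kif2a_cKO and 1365 ± 114 CPM across controls. Dst encodes dystonin, a linker of filaments to the rest of the cytoskeleton, and was at 803 ± 88.2 CPM across Kif2a_cKO and 776 ± 125 CPM across controls. Cdk5 and Hspb1 were the 2 members with an unadjusted p under 0.05, both higher in Kif2a_cKO, and were named after their values were seen. An unadjusted p under 0.05 in that direction was found in 2.97% of tested genes. Cdk5 encodes a kinase of neurofilament tails and was at 153, 147, 155, 147 and 150 CPM in Kif2a_cKO, and at 140, 137, 130, 139 and 143 CPM in controls. The groups did not overlap for Cdk5, as for 1.17% of tested genes. At 0.13 on the log2 scale (SE 0.0578, edgeR adjusted p = 0.703) the difference was not called. Hspb1, a small heat shock protein gene, had 134 ± 16.1 CPM across Kif2a_cKO, against 110 ± 21.0 CPM across controls (± SD, n = 5 each), with 0.29 on the log2 scale (SE 0.130, edgeR adjusted p = 0.703). Without control 3 neither had an unadjusted p under 0.05, with 0.09 for Cdk5 (SE 0.0593) and 0.18 for Hspb1 (SE 0.107).

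Markers of the neuron classes that differ in neurofilament content gave no called gene. Of 12 markers of large-diameter A-fibre neurons 9 were above 0, with a median log2 fold change of 0.09 and of 0.03 without control 3. Their summed level was 1203 to 1456 CPM in Kif2a_cKO and 1223 to 1366 CPM in controls. The most abundant were Ntrk2, the receptor of brain-derived neurotrophic factor, at 187 ± 12.6 CPM across Kif2a_cKO and 197 ± 29.4 CPM across controls, and the sodium channel gene Scn8a at 167 ± 25.2 CPM across Kif2a_cKO and 167 ± 16.01 CPM across controls. Vsnl1, a calcium sensor gene, was at 152 ± 19.7 CPM across Kif2a_cKO and 165 ± 57.0 CPM across controls. Both Ntrk2 (246 CPM) and Vsnl1 (257 CPM) were highest in control 3. On the log2 scale Vsnl1 was at -0.12 (SE 0.196), and at 0.08 (SE 0.138) without control 3. Without controls 1, 3 and 5 it was at 0.35 (SE 0.133). Of 12 markers of small-diameter C-fibre neurons 8 were above 0, with a median of 0.03 and of -0.09 without control 3. Their summed level was 3937 to 5103 CPM in Kif2a_cKO and 3217 to 4518 CPM in controls, and control 3 was again the lowest. Calca, the CGRP gene, was at 1926 ± 179 CPM across Kif2a_cKO and 1556 ± 160 CPM across controls. Its log2 fold change of 0.31 (SE 0.0981) had the smallest p of the list, 0.00794 unadjusted and 0.703 adjusted in edgeR. The nociceptor sodium channel genes Scn10a and Scn11a gave 0.03 (SE 0.183) and -0.08 (SE 0.211) on the log2 scale. Without control 3 Scn10a was at -0.10 (SE 0.158) and Scn11a at -0.20 (SE 0.203). Calb1 of the first list and Slc17a8 of the second, named after their values were seen, were higher in Kif2a_cKO too. Their unadjusted edgeR p was 0.0184 and 0.0202. An unadjusted p under 0.05 in that direction was thus found in 1 of 12 and 2 of 12 markers, against 2.97% of tested genes. Without control 3 the unadjusted edgeR p was 0.0671 for Calb1, 0.0487 for Slc17a8 and 0.0158 for Calca.

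For vimentin the lists of other cell types that make it are set beside its values. The 8 satellite glia markers summed to between 5686 and 7294 CPM in Kif2a_cKO and between 5415 and 6720 CPM in controls, with 4 above 0 and 4 below on the log2 scale (median 0.005). The 4 above 0, Fabp7, Apoe, Cdh19 and Ednrb, all had an unadjusted p under 0.05 in edgeR (smallest 0.00877, for Cdh19), against 2.97% of tested genes in that direction. The 4 below 0 were Slc1a3 (-1.09), Kcnj10 (-0.80), Ptgds (-0.49) and Glul (-0.22), none with an unadjusted p under 0.05. Without controls 1, 3 and 5 the unadjusted edgeR p was 0.0702 for Apoe, 0.0973 for Cdh19, 0.21 for Ednrb and 0.26 for Fabp7, all 4 still above 0. Of the 4 below 0, Slc1a3 then turned to 0.37 (SE 0.200), Kcnj10 to 0.17 (SE 0.157) and Glul to 0.12 (SE 0.0920). Ptgds stayed below, at -0.63 (SE 0.294). The satellite glia median was 0.05 without control 3 and 0.18 without controls 1, 3 and 5. The 7 fibroblast markers summed to between 2227 and 3084 CPM in Kif2a_cKO and between 2079 and 2832 CPM in controls, with a median of -0.007. Within Kif2a_cKO the satellite glia sum ran from high to low in the library order 5, 1, 3, 2, 4, the order that Vim followed too, whereas among controls the orders differed. None of these markers was called, nor any of the 8 endothelial and mural markers (median 0.05; 163 to 322 CPM in Kif2a_cKO and 160 to 339 CPM in controls) or of the 8 macrophage markers (median -0.09; 175 to 256 CPM in Kif2a_cKO and 148 to 275 CPM in controls). All markers of these 4 lists were above 0 in every library. Their part in the Vim values was not tested.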

How the data were processed

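The submitters' processing notes name cutadapt, STAR, DESeq2 and the mm10 genome. Neither notes nor headers state versions, the read counter, its annotation or strandedness. Deposited by the authors were raw counts per gene, a normalized signal (count over a size factor), regularized log2 values, and a DESeq2 comparison with a log2 fold change, a p-value and a false discovery rate. The raw counts alone were tested here.

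The filterByExpr function (counts of at least 10, totals of at least 15) left 17439 of 23923. Libraries were scaled by TMM (factors 0.957 to 1.05), and edgeR 4.0.16 in R 4.3.3 ran a robust quasi-likelihood F test on group alone, with Benjamini-Hochberg adjustment over all tested genes and calls at an adjusted p under 0.05. The SE is the log2 fold change over the square root of F. CPM use TMM factors, and log2 CPM a prior count of 2. Positions and lengths came from GENCODE M21 (GRCm38), using the principal transcript of each gene. Replicates of a group had Pearson's r of log2 CPM from 0.964 to 0.989 and differed by more than sampling noise. The fit was tested on simulated data.

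Named were the 6 members, up to 3 called genes of a comparison list or otherwise its 3 most abundant, and the 3 genes most like each member. The members and lists were chosen with earlier results of these data known. Alternatives were DESeq2 1.42.0, limma-voom (limma 3.58.1) with sample weights, other scalings and filters, the replicate number as a block, each library left out, and controls 1, 3 and 5 left out together, the last chosen from earlier results.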

Additional observations from a re-analysis of the deposited data

Results flagged for a closer look

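Of 22 sets of 5 libraries looked at (the 6 genes and the 5 ratios to Nefl, in each group), 4 held a library whose gap to its nearest neighbour exceeded Dixon's limit for 5 values, where chance gives about 1 in 20. The sets share libraries and related genes, so the 4 are not independent and cannot be counted against that rate. All 4 were control 3. It had 1817 CPM of Nefl, against 2773 CPM in the next lowest control, and 1580 CPM of Nefh, against 2730 CPM in the next lowest. It had 131.8 CPM of Ina, against 71.7 CPM in the next highest control, and an Ina to Nefl ratio per length of 0.07566, against 0.0253 in the next highest. No Kif2a_cKO set was flagged in this way. The same library had the highest summed level of spinal cord and central glia genes, and what this contributes to the 4 values was not tested.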

How the results depend on the processing

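No member was called under any of the 18 alternative settings, with edgeR, DESeq2 and limma-voom adjusted p values between 0.559 and 0.998. Of the 108 member fold changes computed under them, 2 turned their sign, both without controls 1, 3 and 5: Nefm to -0.012 and Prph to -0.054. The cause was not tested. When single libraries were left out, the log2 fold change ran from 0.109 to 0.285 for Nefl, 0.055 to 0.279 for Nefm, 0.076 to 0.282 for Nefh, -0.672 to -0.290 for Ina, 0.045 to 0.204 for Prph and 0.035 to 0.145 for Vim, each nearest to 0 without control 3. That library was the highest control for Ina and the lowest for the other members, so a shift toward 0 without it follows by construction. With limma-voom, which gives outlying libraries less weight, Ina was at -0.268. Ina alone of the members had an unadjusted edgeR p under 0.05 in some alternative settings. These were 0.0497 with library totals alone, 0.0481 without Kif2a_cKO 4, 0.0393 without control 2 and 0.0295 without control 4. The keratin median ran from -0.121 to 0.043, lowest without Kif2a_cKO replicate 5. The medians of 3 other lists turned their sign without control 3, to -0.053 for the other filament genes, -0.059 for the cytolinkers and filament regulators and -0.087 for the C-fibre markers. These medians lay near 0 and turned in other settings too. The median of the other filament genes was -0.003 with DESeq2. Without Kif2a_cKO 2 it was -0.011 for the cytolinkers and filament regulators and -0.078 for the C-fibre markers. Without control 3 the medians of fibroblasts (0.067) and macrophages (0.058) turned too. The sensory neuron median (-0.016) and the spinal cord and central glia median (1.750) turned without controls 1, 3 and 5. The turn of the spinal cord list follows from leaving out the controls with the highest sums of its genes.

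With the replicate number as a block, Nefl was at 0.264, Nefm at 0.240, Nefh at 0.260, Ina at -0.515, Prph at 0.155 and Vim at 0.082, and no member was called. Over all genes edgeR called 0 with the block and 3 without it, with 1499 and 1217 genes at an unadjusted p under 0.05. No label states what a shared number stands for, although the sample numbers in the titles are consecutive within each pair. The same-numbered libraries deviated together in 4 of 5 pairs (r from 0.140 to 0.367) and not in the fourth (r = -0.147), so not every library correlated best with its own number. This is a hint of pairing from the data, not from the design.

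Per coding length the log2 ratio to Nefl was -0.229 for Nefm, -1.082 for Nefh, -0.286 for Prph and -1.750 for Vim, so Nefm and Prph fell below Nefl because the noncoding part of the Nefl transcript is long. Depth limits none of these highly counted genes, and the spread between libraries sets their precision.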

Other observations

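Keratins, best known as the filament genes of epithelia, were scarce in the ganglion. Of 22 measured, 13 passed the filter on low counts, 6 of them above 0 and 7 below, with a median log2 fold change of -0.007 and 0 called by edgeR, DESeq2 or limma-voom. Their summed level was 57.4 to 67.2 CPM in Kif2a_cKO and 55.8 to 65.3 CPM in controls. More than any other keratin, Krt222 made up this sum, at 36.2 ± 3.55 CPM across Kif2a_cKO, against 36.5 ± 2.44 CPM across controls (± SD, n = 5 each), followed by Krt27 at 5.66 ± 1.22 CPM across Kif2a_cKO and 6.46 ± 1.25 CPM across controls and by Krt80 at 4.25 ± 1.10 CPM across Kif2a_cKO and 4.88 ± 1.64 CPM across controls. Krt7, named after its values were seen, was the 1 keratin with an unadjusted p under 0.05 (0.0447, edgeR adjusted p = 0.703), at 0.425 ± 0.205 CPM across Kif2a_cKO and 0.714 ± 0.0639 CPM across controls. Krt13, Krt15, Krt20, Krt75 and Krt84 were at 0 in at least 1 library.

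Nefm and Vim differed in which library was extreme. Kif2a_cKO 4, with 73031457 counts, had the highest Nefm (5289 CPM) and the lowest Vim (657 CPM), and its Vim to Nefl ratio of 0.293 was the lowest of the 10.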
